A study of Mus musculus with 39 samples.

Results

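The genes described here are 10 markers of stellate cells and of the collagen matrix around islets, which are Acta2, Tagln, Des, Pdgfrb, Col1a1, Col1a2, Col3a1, Col6a1, Dcn and Lum. They were chosen by symbol, each through the probe set that carries that symbol alone (the one of highest mean where a symbol has several), and every one of them had exactly 1 such probe set. They are 10 of 19938 genes measured in this way. Islets were isolated from mice, and their RNA was hybridised to 39 arrays of the type Affymetrix Mouse Gene 1.0 ST, which carry short DNA probes for annotated genes. Levels below are the log2 values that the authors deposited, so that a difference of 1 is a 2-fold change. The first pair of groups holds Pdx1-creLate islets and islets of wild-type littermates, called control here, from backcross generation N8 of that line and with no pregnancy, 4 arrays each. Pdx1-creLate is a line that carries Cre recombinase under a Pdx1 promoter fragment, active in the endocrine pancreas, and its transgene is known to hold a human growth hormone minigene as well. The other 8 groups are wild-type C57bl6/J mice in a time series, namely non-pregnant females, pregnancy days 3.5, 6.5, 9.5, 12.5, 15.5 and 18.5, and lactating females 10 days post partum, with 3 arrays at day 3.5 and 4 in every other group. The labels call the arrays of a group biological replicates and give no age.

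Stellate cells are fat-storing, desmin-positive cells of the pancreas that turn into contractile, collagen-secreting myofibroblasts when they are activated, for example in pancreatitis. The islet itself holds few fibroblasts, and its vessels are wrapped by pericytes that share Pdgfrb and part of the contractile genes with stellate cells. Acta2 (smooth muscle actin), Tagln (transgelin, an actin-binding protein) and Des (desmin, a muscle intermediate filament) belong to the contractile side, and Pdgfrb is the receptor through which platelet-derived growth factor B recruits these cells. Col1a1 and Col1a2 together form type I collagen, Col3a1 forms type III collagen, Col6a1 is a chain of the beaded filaments of type VI collagen, and Dcn (decorin) and Lum (lumican) are small proteoglycans that bind collagen fibrils.

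The windows around a transcription start site of Acta2, Col1a2 and Col3a1, which had called differences below, are shown because they hold different short motifs. They are from RefSeq on build GRCm38.p6, run from 250 bases before to 50 bases after the start, and were on file for 5 of the 10 members (Acta2, Des, Col1a2, Col3a1 and Col6a1). Acta2 is given on the minus strand of chr19:34255324-34255623, Col1a2 on the plus strand of chr6:4505368-4505667 and Col3a1 on the plus strand of chr1:45311288-45311587. Capitals in Acta2 mark CArG boxes, the element that serum response factor binds, with 1 mismatch allowed in the A/T core. Capitals in Col1a2 mark 1 such box and CCAAT on either strand. Capitals in Col3a1 mark TATAAA, the letters of a TATA box core, wherever they stand in the window.
Acta2: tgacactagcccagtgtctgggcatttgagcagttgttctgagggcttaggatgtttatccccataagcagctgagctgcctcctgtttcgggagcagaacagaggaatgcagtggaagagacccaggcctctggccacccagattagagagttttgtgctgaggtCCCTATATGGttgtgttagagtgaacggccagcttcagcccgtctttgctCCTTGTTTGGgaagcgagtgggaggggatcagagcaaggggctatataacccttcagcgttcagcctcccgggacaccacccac
Col1a2: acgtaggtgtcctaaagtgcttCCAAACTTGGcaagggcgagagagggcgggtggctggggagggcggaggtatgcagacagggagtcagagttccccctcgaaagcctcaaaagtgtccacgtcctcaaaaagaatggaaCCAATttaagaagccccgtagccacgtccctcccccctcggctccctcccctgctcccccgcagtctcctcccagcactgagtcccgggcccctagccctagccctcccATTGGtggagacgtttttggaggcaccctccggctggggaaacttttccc
Col3a1: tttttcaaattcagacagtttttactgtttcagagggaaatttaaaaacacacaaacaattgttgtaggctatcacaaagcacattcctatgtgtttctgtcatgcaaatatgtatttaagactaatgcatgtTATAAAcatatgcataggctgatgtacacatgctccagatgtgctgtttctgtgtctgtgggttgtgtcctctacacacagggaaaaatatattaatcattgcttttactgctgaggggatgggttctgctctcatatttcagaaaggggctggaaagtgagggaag
The search covered both strands of each window. Acta2 held 2 CArG boxes with 1 core mismatch, at bases 167 to 176 and 217 to 226 counted from the 5′ end of the window, and no perfect one. Among 32851 RefSeq windows of the same length, 8.5% held at least 1 such box, 0.68% held 2 or more, and 1.63% held a perfect box. CCAAT, found at bases 142 to 146 and on the other strand at 251 to 255 of Col1a2, stood in 37.41% of windows, and TATAAA, at bases 134 to 139 of Col3a1, in 13.62%. Matches of this kind describe the letters only, and no binding was measured.

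The deposited values carry 1 decimal, the array medians lay between 5.8 and 6.0, and Pearson's r between pairs of arrays lay between 0.9728 and 0.9956 across genes, which are not independent replicates. The arrays were islet-like by their hormones, with Ins2 between 11.9 and 12.7 and Gcg between 13.0 and 14.0. Non-pregnant replicate 1 stood apart, at 11.9 for Ins2 against 12.7 in the other 3, and at 13.0 for Gcg against 14.0. Control replicate 4 stood apart by Tph1 and Cldn8, genes that are high in the transgenic line: Tph1 was at 10.3 to 10.8 in Pdx1-creLate, and at 7.3 in control replicate 4 against 4.5 to 4.6 in the other controls. Pdx1-creLate and control arrays had Xist between 3.8 and 5.0, and the C57bl6/J arrays between 9.7 and 10.5, so those sets differ in sex. They also differ in line, with backcross generation N8 of the transgenic line against C57bl6/J. Among markers of other stromal cells Rgs5, a pericyte gene, lay between 7.8 and 8.7, and Gfap, a marker of quiescent stellate cells, between 4.7 and 5.6. In such bulk samples fewer cells of a type and less RNA per cell cannot be told apart.

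**Figure D1:**
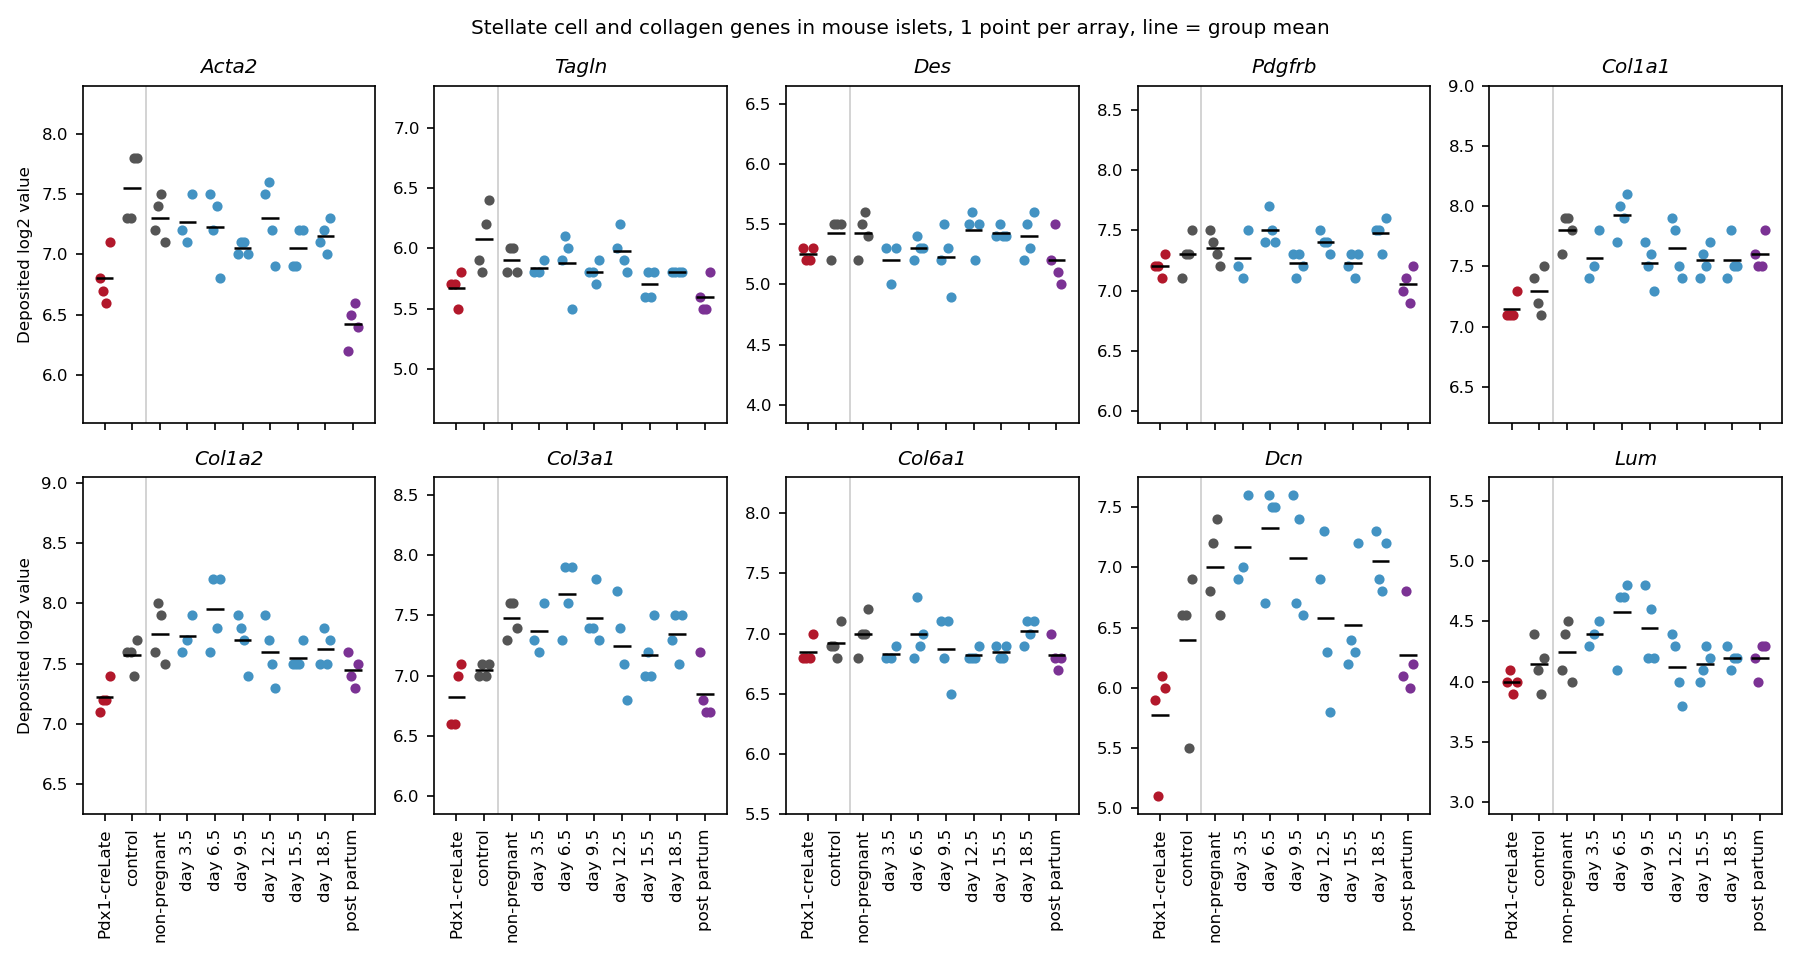
Deposited log2 values of the 10 genes (vertical axis, same span in every panel) in the 10 groups (horizontal axis), with 1 point per array and a line at the group mean. Acta2 was lowest post partum, at 6.2 to 6.6, and Dcn had the widest spread, from 5.1 to 7.6.

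In Pdx1-creLate islets Acta2 was lower than in controls, and the type I collagen chain Col1a2 was lower by a smaller step. Acta2 was at 6.8, 6.7, 6.6 and 7.1 in Pdx1-creLate replicates 1 to 4, against 7.3, 7.3, 7.8 and 7.8 in control replicates 1 to 4. All 4 Pdx1-creLate arrays lay below all 4 control arrays. The log2 difference was −0.75 ± 0.14 (SE), a fold of 0.595, with an adjusted p of 0.0041 by limma over all genes. This call held without each array in turn (adjusted p from 0.00308 to 0.0259) and in the 13 other settings tried (0.000185 to 0.0193). Without control replicate 4 the difference was −0.67 (adjusted p = 0.018).

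Tagln, which shares much of its regulation with Acta2 in smooth muscle, was at 5.7, 5.7, 5.5 and 5.8 in Pdx1-creLate and at 5.9, 5.8, 6.2 and 6.4 in control islets. The groups met at 5.8, and the difference of −0.40 ± 0.13 did not pass (adjusted p = 0.0827). It passed without control replicate 2 (adjusted p = 0.0415) and with all 39 arrays in 1 model (adjusted p = 0.00989). The other contractile gene, Des, differed by −0.18 (adjusted p = 0.355) and the receptor Pdgfrb by −0.10 (adjusted p = 0.65), both within overlapping ranges.

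Among the matrix genes Col1a2 was at 7.1, 7.2, 7.2 and 7.4 in Pdx1-creLate, against 7.6, 7.6, 7.4 and 7.7 in controls, ranges that touch at 7.4. Its difference of −0.35 ± 0.10 (fold 0.785) passed narrowly, with adjusted p = 0.049. The call ended in 14 of 21 other settings, among them without Pdx1-creLate replicate 1 (adjusted p = 0.145), 2 (0.103) or 3 (0.115) and without control replicate 1 (0.113), 2 (0.105) or 4 (0.133). Its partner chain Col1a1 was at 7.1 on 3 Pdx1-creLate arrays and at 7.3 on the other, and at 7.4, 7.2, 7.1 and 7.5 in controls (difference −0.15, adjusted p = 0.495). Col3a1 differed by −0.23 (adjusted p = 0.336), Col6a1 by −0.08 (adjusted p = 0.74) and Lum by −0.15 (adjusted p = 0.506). Dcn scattered most, with 5.9, 5.1, 6.1 and 6.0 in Pdx1-creLate against 6.6, 6.6, 5.5 and 6.9 in controls. Its difference of −0.63 ± 0.26 had an adjusted p of 0.209, and of 0.0196 without control replicate 3, the low control array.

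In all, the transgene comparison called 2 of the 10 members, both lower in Pdx1-creLate, where 6.59% of all genes were called. All 10 differences were negative, with a median of −0.20, beside a median of −0.03 over all genes, of which 54.4% were negative. The mean of the 10 genes on an array ran from 6.17 to 6.43 in Pdx1-creLate and from 6.45 to 6.77 in control islets. Beside this, 13 of 14 endothelial markers had negative differences with 0 called by limma (3 with an unadjusted p under 0.05), and 17 of 18 acinar markers, which report exocrine tissue, had positive ones with 0 called (3 with an unadjusted p under 0.05). The 4 Pdx1-creLate arrays had an acinar mean of 9.46 ± 0.94 (SD) and the 4 controls one of 8.78 ± 0.64, and the endothelial mean was 7.57 ± 0.13 in Pdx1-creLate and 7.70 ± 0.16 in controls. Islet hormone and beta cell genes were lower as well: of 9 beta cell markers 7 differences were negative and 4 called lower (median −0.38), and of 7 markers of other islet endocrine cells all 7 were negative and 3 called lower (median −0.53). The mean of the other endocrine markers ran from 9.90 to 10.33 in Pdx1-creLate and from 10.44 to 10.69 in control islets, and its part in the members' differences was not tested. With the acinar or the endothelial mean as a covariate Acta2 was still called, and it was then the only member called.

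In the wider collagen and matrix lists, beside 6.59% of all genes called, few genes of each list were called. Of 18 genes that fold, process and crosslink collagen, 2 fell and 1 rose in Pdx1-creLate islets: P4ha2, a prolyl hydroxylase subunit, fell by 0.88 ± 0.11 and Plod1, a lysyl hydroxylase, by 0.60 ± 0.13, while Bmp1, the procollagen C-proteinase, rose by 0.63 ± 0.10. Of 18 other stromal matrix genes 2 fell, the proteoglycan Bgn (biglycan) by 0.60 ± 0.10 and Aspn (asporin) by 0.43 ± 0.12. Of 12 proteases and inhibitors Timp2, an inhibitor of matrix metalloproteinases, was the 1 called (−0.88 ± 0.10). Of 9 other fibrillar and beaded-filament collagens only Col5a2 was called (0.70 ± 0.11). Of 16 smooth muscle contractile genes only Cald1 (caldesmon) was called, at 0.70 ± 0.13, the opposite direction to Acta2. Of 18 basement membrane genes and 17 genes of PDGF and TGF-beta signalling 0 were called by limma (2 and 4 with an unadjusted p under 0.05).

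Over pregnancy the 10 genes stayed close to their non-pregnant levels. Acta2 was at 7.2, 7.4, 7.5 and 7.1 on the non-pregnant arrays, at 7.2, 7.1 and 7.5 on day 3.5, at 7.5, 7.2, 7.4 and 6.8 on day 6.5 and at 7.0, 7.1, 7.1 and 7.0 on day 9.5. It was at 7.5, 7.6, 7.2 and 6.9 on day 12.5, at 6.9, 6.9, 7.2 and 7.2 on day 15.5 and at 7.1, 7.2, 7.0 and 7.3 on day 18.5. Every pregnancy day overlapped the non-pregnant range of Acta2. Against the 4 non-pregnant arrays, which all day comparisons share, 0 of the 10 members were called by limma on any of the 6 days. The share of all genes called was 0.0451% on day 3.5, 0.622% on day 6.5, 19.4% on day 9.5, 5.27% on day 12.5, 8.23% on day 15.5 and 11.1% on day 18.5. The 60 differences ran from −0.48 to 0.33 on the log2 scale, folds of 0.719 to 1.25, and 4 of them had an unadjusted p under 0.05. Mid-pregnancy, the mean of days 9.5, 12.5 and 15.5, gave the same count of 0 members (1 with an unadjusted p under 0.05, that of Col1a1) against 9.24% of all genes. All 10 differences were negative there, from −0.28 for Dcn to −0.01 for Lum. Over all genes the median was −0.01 and 52.3% were negative.

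Of the 6 matrix genes all but Col6a1 had their highest group mean on day 6.5. Col1a1 was at 7.6, 7.9, 7.9 and 7.8 in non-pregnant islets, at 7.7, 8.0, 7.9 and 8.1 on day 6.5 and at 7.7, 7.5, 7.6 and 7.3 on day 9.5. The day 9.5 arrays were lower on average than the non-pregnant ones, but the ranges overlapped, with day 9.5 replicate 1 (7.7) above non-pregnant replicate 1 (7.6). Col3a1 was at 7.3, 7.9, 7.6 and 7.9 on day 6.5, against 7.3, 7.6, 7.6 and 7.4 in non-pregnant islets. Dcn was at 6.7, 7.6, 7.5 and 7.5 on day 6.5, against 6.8, 7.2, 7.4 and 6.6 in non-pregnant islets. In 6 of the 10 genes (Pdgfrb, Col1a1, Col1a2, Col3a1, Dcn and Lum) day 6.5 had the highest mean of the 10 groups. The share of all genes with their highest mean on day 6.5 was not counted. Col1a1, Col1a2, Col3a1, Dcn and Lum also varied together across arrays (r from 0.65 to 0.868), so they are not separate observations. None of these day 6.5 levels differed from non-pregnant by the test; the differences were 0.13 for Col1a1 (adjusted p = 0.759), 0.20 for Col3a1 (0.708) and 0.33 for both Dcn (0.724) and Lum (0.373). Day 6.5 replicate 1 was the low array of its group for both proteoglycans, at 6.7 for Dcn and 4.1 for Lum, against 4.7 to 4.8 for Lum on the other 3 arrays.

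A single F-test for any difference of the 6 days from non-pregnant called 2 members, Pdgfrb (adjusted p = 0.0421) and Col1a1 (adjusted p = 0.0294), where 39.8% of all genes were called. Pdgfrb was at 7.5, 7.4, 7.3 and 7.2 in non-pregnant islets, at 7.4, 7.7, 7.5 and 7.4 on day 6.5, at 7.2, 7.3, 7.1 and 7.3 on day 15.5 and at 7.5, 7.5, 7.3 and 7.6 on day 18.5, so its day means went up and down by no more than 0.15 around the non-pregnant mean. The call of Pdgfrb ended in 20 of 41 other settings (adjusted p up to 0.1), including without replicates 1 or 2 of day 3.5, 2 or 3 of day 6.5, 2, 3 or 4 of day 9.5, 1, 2 or 3 of day 12.5, 1 or 3 of day 15.5 and 1, 2 or 4 of day 18.5. That of Col1a1 ended in 5, among them without day 6.5 replicate 2 (adjusted p = 0.0699), 3 (0.0515) or 4 (0.0926). Without day 6.5 replicate 1 the test called 5 members, with Col1a2 (0.0498), Dcn (0.042) and Lum (0.00743) added. Lum, at adjusted p = 0.0597 with all arrays, passed in 11 of 40 settings. Besides day 6.5 replicate 1, these were day 9.5 replicate 2 (0.04) or 4 (0.044), day 12.5 replicate 1 (0.0347) or non-pregnant replicate 3 (0.0461) left out, and 6 other settings, namely quantile normalization (0.0403), trend and robust eBayes (0.0453), the acinar (0.0378) or endothelial (0.0319) mean as a covariate, all 39 arrays in 1 model (0.0466) and rounding noise (0.0438). Dcn passed without day 12.5 replicate 2 (0.0299) or day 15.5 replicate 4 (0.0351), and Col3a1 without day 12.5 replicate 1 (0.0425). The difference of Col1a1 on day 9.5 alone, −0.28 ± 0.12, had an adjusted p of 0.0869, and of 0.0469 without non-pregnant replicate 1 and 0.0489 without day 9.5 replicate 1.

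The acinar mean moved widely over the same groups, with 8.93 ± 0.95 in non-pregnant arrays, 6.80 ± 1.44 on day 3.5 (n = 3), 9.75 ± 0.15 on day 6.5 and 8.05 ± 1.38 on day 9.5. Its part in the day 6.5 levels was not tested beyond the covariate settings, in which 0 members were called on day 6.5. Among the matrix lists the genes of collagen folding, processing and crosslinking had the most calls in pregnancy, with 6 of 18 higher and 2 lower on day 9.5, 4 higher on day 12.5, 3 higher and 3 lower on day 15.5 and 6 higher and 1 lower on day 18.5. On those days 19.4%, 5.27%, 8.23% and 11.1% of all genes were called, so day 9.5 had the most calls over all genes too. The 9 other fibrillar and beaded-filament collagens had 0 higher on every day, and 2 lower on day 9.5 and 1 lower on day 15.5, near the shares of all genes called on these days.

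Post partum islets had lower Acta2, Tagln, Pdgfrb and Col3a1 than non-pregnant ones. Acta2 was at 6.2, 6.5, 6.6 and 6.4 post partum, against 7.2, 7.4, 7.5 and 7.1 in non-pregnant islets. All post partum arrays lay below all non-pregnant and all pregnancy arrays. The difference from non-pregnant was −0.88 ± 0.14, a fold of 0.545 (adjusted p = 4.01e-05), and it held without each array in turn (adjusted p from 4.45e-05 to 0.000477). Without non-pregnant replicate 1 it was −0.91 (adjusted p = 0.000123).

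Col3a1, type III collagen, was at 7.2, 6.8, 6.7 and 6.7 post partum and at 7.3, 7.6, 7.6 and 7.4 in non-pregnant islets. The groups did not overlap, and the difference was −0.63 ± 0.16 (fold 0.648, adjusted p = 0.00846, with 0.00394 to 0.0346 over the left-out arrays). Pdgfrb was at 7.0, 7.1, 6.9 and 7.2 post partum, against 7.5, 7.4, 7.3 and 7.2, with only the lowest non-pregnant array reaching the post partum range. Its difference was −0.30 ± 0.09 (adjusted p = 0.0265), and the call ended without post partum replicate 1 (adjusted p = 0.0666) or 3 (0.0755) and without non-pregnant replicate 1 (0.108) or 2 (0.0748). It also ended under quantile normalization (0.0965), with only the groups compared (0.074) and with rounding noise (0.0504). Tagln was at 5.6, 5.5, 5.5 and 5.8 post partum, against 5.8, 6.0, 6.0 and 5.8 in non-pregnant islets. Its difference was −0.30 ± 0.10 (adjusted p = 0.0409), and the call ended without post partum replicate 1 (0.0751), 2 (0.118) or 3 (0.0867) and without non-pregnant replicate 2 (0.124) or 3 (0.12). It also ended with centring on medians (0.0504), the array SD as a covariate (0.0739), all 39 arrays in 1 model (0.0695) and only the groups compared (0.074).

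The other 6 members were not called. Dcn was at 6.1, 6.8, 6.0 and 6.2 post partum, against 6.8, 7.2, 7.4 and 6.6, with a difference of −0.73 ± 0.27 (adjusted p = 0.0742) that passed without post partum replicate 2 (0.0437) or non-pregnant replicate 4 (0.043) and with only the groups compared (0.0329). Col1a2 differed by −0.30 (adjusted p = 0.141) and Des by −0.23 (0.208). Col1a1 was at 7.6, 7.5, 7.5 and 7.8 post partum, against 7.6, 7.9, 7.9 and 7.8 (−0.20, adjusted p = 0.268), and Col6a1 (−0.18, adjusted p = 0.297) and Lum (−0.05, adjusted p = 0.866) overlapped the non-pregnant range. Thus 4 of 10 members were called, all lower, where 12.2% of all genes were called. All 10 differences were negative with a median of −0.30, beside a median of 0.03 over all genes, of which 43.9% were negative.

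**Figure D2:**
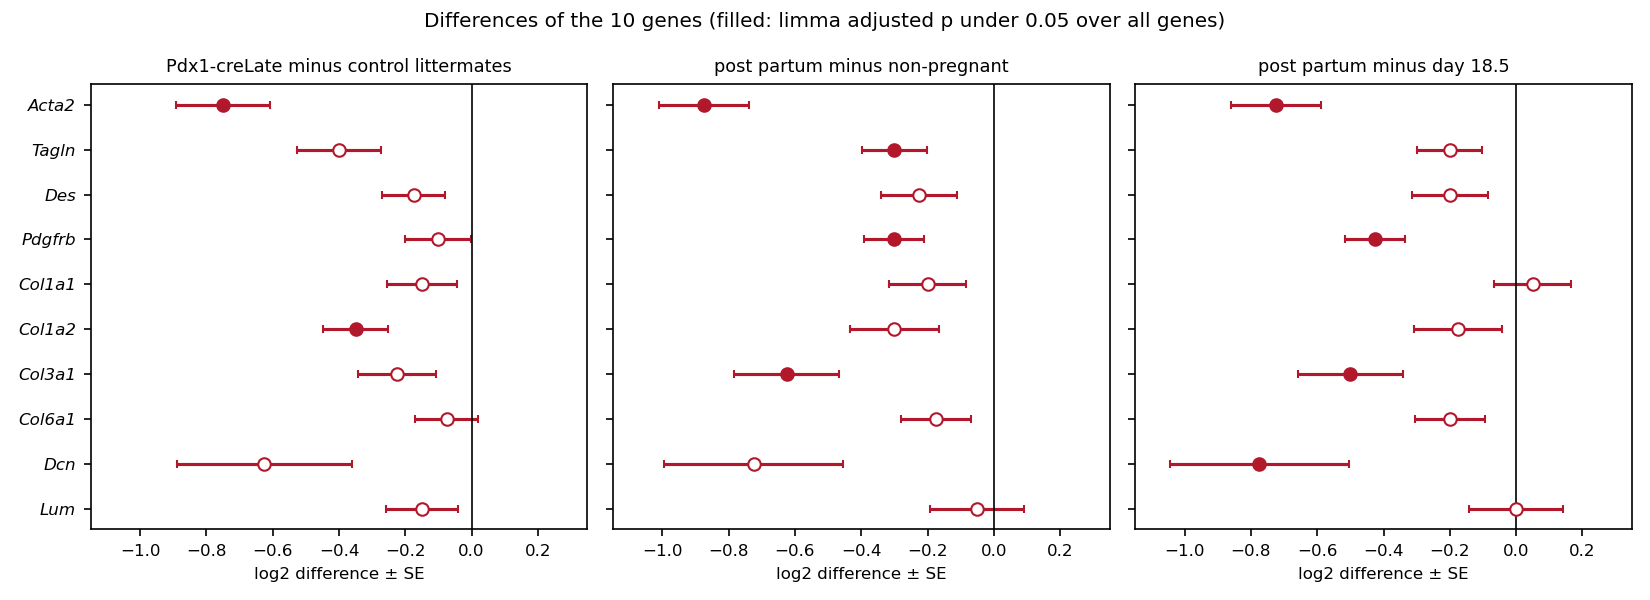
Log2 difference with its standard error (horizontal axis) of each gene (vertical axis) for Pdx1-creLate minus control, post partum minus non-pregnant and post partum minus day 18.5, fitted with limma; filled points had an adjusted p under 0.05 over all genes. Acta2 lay at −0.75, −0.88 and −0.73 in the 3 panels.

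Across birth, from day 18.5 to post partum, 4 of 10 members were called lower, where 30.2% of all genes were called. Acta2 was at 6.2, 6.5, 6.6 and 6.4 post partum and at 7.1, 7.2, 7.0 and 7.3 on day 18.5, a difference of −0.73 ± 0.14 (adjusted p = 0.000673) between groups that did not overlap. Pdgfrb was at 7.0, 7.1, 6.9 and 7.2 post partum and at 7.5, 7.5, 7.3 and 7.6 on day 18.5, which did not overlap either (−0.43 ± 0.09, adjusted p = 0.00173). Both held without each array in turn, with adjusted p up to 0.00441 for Acta2 and 0.0109 for Pdgfrb. Quantile normalization ended the call of Pdgfrb (adjusted p = 0.0523), and those of Col3a1 (0.145) and Dcn (0.0947), which follow, while Tagln (0.0447) and Des (0.0376) passed under it.

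Col3a1 was at 7.2, 6.8, 6.7 and 6.7 post partum and at 7.3, 7.5, 7.1 and 7.5 on day 18.5 (−0.50 ± 0.16, adjusted p = 0.0197), with 1 post partum array inside the day 18.5 range. Its call ended without day 18.5 replicate 4 (0.0641) or post partum replicate 4 (0.0649). Dcn was at 6.1, 6.8, 6.0 and 6.2 post partum and at 7.3, 6.9, 6.8 and 7.2 on day 18.5 (−0.78 ± 0.27, adjusted p = 0.0307), and its call ended without day 18.5 replicate 1 (0.0841) or 4 (0.0783) and without post partum replicate 1 (0.0724), 3 (0.0667) or 4 (0.0723). Col1a1 had nearly the same level on both sides of birth, 7.60 ± 0.14 post partum and 7.55 ± 0.17 on day 18.5 (SD, n = 4 each), and Lum had a mean of 4.20 in both.

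The post partum comparisons share their 4 post partum arrays. On these arrays endothelial markers were lower too. The mean of 14 endothelial markers ran from 7.39 to 7.54 post partum, against 7.63 to 7.78 in non-pregnant islets and 7.73 to 7.83 on day 18.5, with no overlap. Against non-pregnant, 6 of the 14 were called lower and 0 higher, led by the junction protein Esam (−0.50 ± 0.08), Egfl7 (−0.38 ± 0.10) and the VEGF receptor Kdr (−0.38 ± 0.10). Against day 18.5, 11 were called lower and 1 higher. These counts, and those of pericyte markers below, stand beside 12.2% of all genes called against non-pregnant and 30.2% against day 18.5. With the endothelial mean of each array as a covariate 0 members were called post partum by limma against either group, and Acta2 differed by −0.45 (adjusted p = 0.134) from non-pregnant and by −0.18 (adjusted p = 0.636) from day 18.5. Because the endothelial mean did not overlap between these groups, this setting cannot tell it apart from the group. Of 8 pericyte markers, 3 were lower against non-pregnant, Mcam (−0.33 ± 0.10), Ndufa4l2 (−0.33 ± 0.11) and Rgs5 (−0.28 ± 0.09). Against day 18.5 Mcam (−0.53 ± 0.10), Rgs5 (−0.50 ± 0.09) and Ndufa4l2 (−0.30 ± 0.11) were lower and Kcnj8 was higher (0.40 ± 0.14). The pericyte mean ran from 6.29 to 6.55 post partum, against 6.48 to 6.61 in non-pregnant islets, which overlap. The spread of all genes on an array, as its SD, was also lower post partum (1.74 to 1.82) than on day 18.5 (1.85 to 1.91). With that SD as a covariate 0 members were called across birth by limma, with Acta2 at adjusted p = 0.3. The SD did not overlap between these groups either, so it cannot be told apart from the group.

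The wider lists are read against the 12.2% of all genes called post partum against non-pregnant, and the collagen, folding, smooth muscle and signalling lists had shares of calls near or below it. Of 18 other stromal matrix genes 5 fell and 0 rose against non-pregnant, with Postn (periostin) at −0.78 ± 0.14 (adjusted p = 0.000228), Bgn at −0.65 ± 0.16, Mgp (matrix Gla protein) at −0.53 ± 0.17 and Sparc at −0.45 ± 0.12. Of 18 basement membrane genes 4 fell, the laminin chain Lama2 (−0.43), the perlecan gene Hspg2 (−0.35), the type IV collagen chain Col4a1 (−0.33) and Nid1 (−0.28). Among the 9 other fibrillar and beaded-filament collagens Col14a1 was the 1 called (−0.55 ± 0.13). The smooth muscle list had Flna (−0.48 ± 0.08) and Smtn (−0.28 ± 0.07) lower of 16, and of 12 proteases and inhibitors Timp2 (−0.43) and Timp3 (−0.40) were lower and Mmp9 higher (0.38). Of 18 collagen folding, processing and crosslinking genes Plod1 was lower (−0.33) and Bmp1 higher (0.35), and of 17 PDGF and TGF-beta genes Tgfb1 was lower (−0.25 ± 0.08).

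Against day 18.5, where 30.2% of all genes were called, the stromal matrix and signalling lists had a smaller share of calls than all genes, the basement membrane list a similar one and the smooth muscle list a larger one, with no test between lists. Of 16 smooth muscle genes 8 fell and 1 rose, with Myl9 (a myosin light chain) at −0.53 ± 0.13, Csrp1 at −0.50 ± 0.10, Tpm1 (tropomyosin) at −0.45 ± 0.09 and Cald1 at −0.33 ± 0.08. Of 18 stromal matrix genes 3 fell, Sparc (−0.68 ± 0.12), Postn (−0.50 ± 0.14) and Aspn (−0.48 ± 0.15). Of 18 basement membrane genes 6 fell, led by Col4a1 (−0.40 ± 0.08) and Col4a2 (−0.38 ± 0.09), and of 17 PDGF and TGF-beta genes 4 fell, including the ligands Pdgfd (−0.33) and Pdgfb (−0.30), which both bind the receptor that Pdgfrb encodes.

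Over all 10 groups Dcn had the widest range of group means, 1.55, and Acta2 followed with 1.13, against pooled SDs within groups of 0.46 and 0.22. For Acta2 the order of the means was control (7.55), day 12.5 and non-pregnant (7.30 each), day 3.5 (7.27), day 6.5 (7.23), day 18.5 (7.15), days 15.5 and 9.5 (7.05 each), Pdx1-creLate (6.80) and post partum (6.43). Neighbours in this order overlapped in every case, as did all 90 pairs of neighbours over the 10 genes. The lowest group was Pdx1-creLate for Col1a1, Col1a2, Col3a1, Dcn and Lum, and post partum for Acta2, Tagln, Pdgfrb and, tied with day 3.5 at 5.20, Des. Des and Col6a1 moved least, with ranges of group means of 0.25 and 0.20, and every value of Des lay between 4.9 and 5.6. Lum lay between 3.8 and 4.8 on every array, below the array medians.

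Between control littermates and non-pregnant C57bl6/J females 2 of 10 members were called, Col1a1 and Col3a1, the same share as the 20.0% of all genes called. Col1a1 was at 7.4, 7.2, 7.1 and 7.5 in control and at 7.6, 7.9, 7.9 and 7.8 in non-pregnant islets, without overlap (−0.50 ± 0.11, adjusted p = 0.00171). Col3a1 was at 7.0, 7.1, 7.0 and 7.1, against 7.3, 7.6, 7.6 and 7.4 (−0.43 ± 0.16, adjusted p = 0.0476), and its call ended without control replicate 1 (0.0944), 2 (0.0655), 3 (0.091) or 4 (0.0686) and without non-pregnant replicate 2 (0.119), 3 (0.114) or 4 (0.0673). Col1a2 (−0.18, adjusted p = 0.358), Col6a1 (−0.08, adjusted p = 0.663) and Acta2 (0.25 ± 0.14, adjusted p = 0.229) were not called. Sex, strain background and litter cannot be told apart in this comparison, nor in the order of levels over all 10 groups.

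The transgene effect minus the mid-pregnancy effect was tested in a single model. These effects come from sets of arrays that differ in sex and line, which cannot be told apart from the difference tested. By limma 0 of 10 members were called (2 with an unadjusted p under 0.05), against 5.48% of all genes. Acta2 came nearest, with −0.58 ± 0.19 and adjusted p = 0.0556, and passed without Pdx1-creLate replicate 4 (0.0253), control replicate 1 (0.0323) or 2 (0.0314), day 12.5 replicate 4 (0.0246), day 15.5 replicate 2 (0.0491) or non-pregnant replicate 3 (0.0409).

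Correlations were taken across the 39 arrays, which within a group share their condition. Which of them were normalized together is not given. Within Col1a1, Col1a2, Col3a1, Dcn and Lum the 10 pairs had Pearson's r from 0.65 to 0.868, highest for Col1a2 with Col3a1, and 0.486 to 0.83 once group means were removed. Acta2 and Tagln had r of 0.80, and 0.66 with group means removed. Des was less close to them, with r of 0.452 to Acta2 and 0.316 to Tagln, and 0.332 and 0.136 with group means removed. Between the contractile genes (Acta2, Tagln, Des) and these 5 matrix genes the 15 pairs ran from −0.122 to 0.44, and from 0.025 to 0.405 with group means removed. Pdgfrb had r from 0.276 to 0.602 to the other members, and Col6a1 had 0.16 to 0.518. Dcn and Lum, neighbouring genes on chromosome 10, had r of 0.743.

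**Figure D3:**
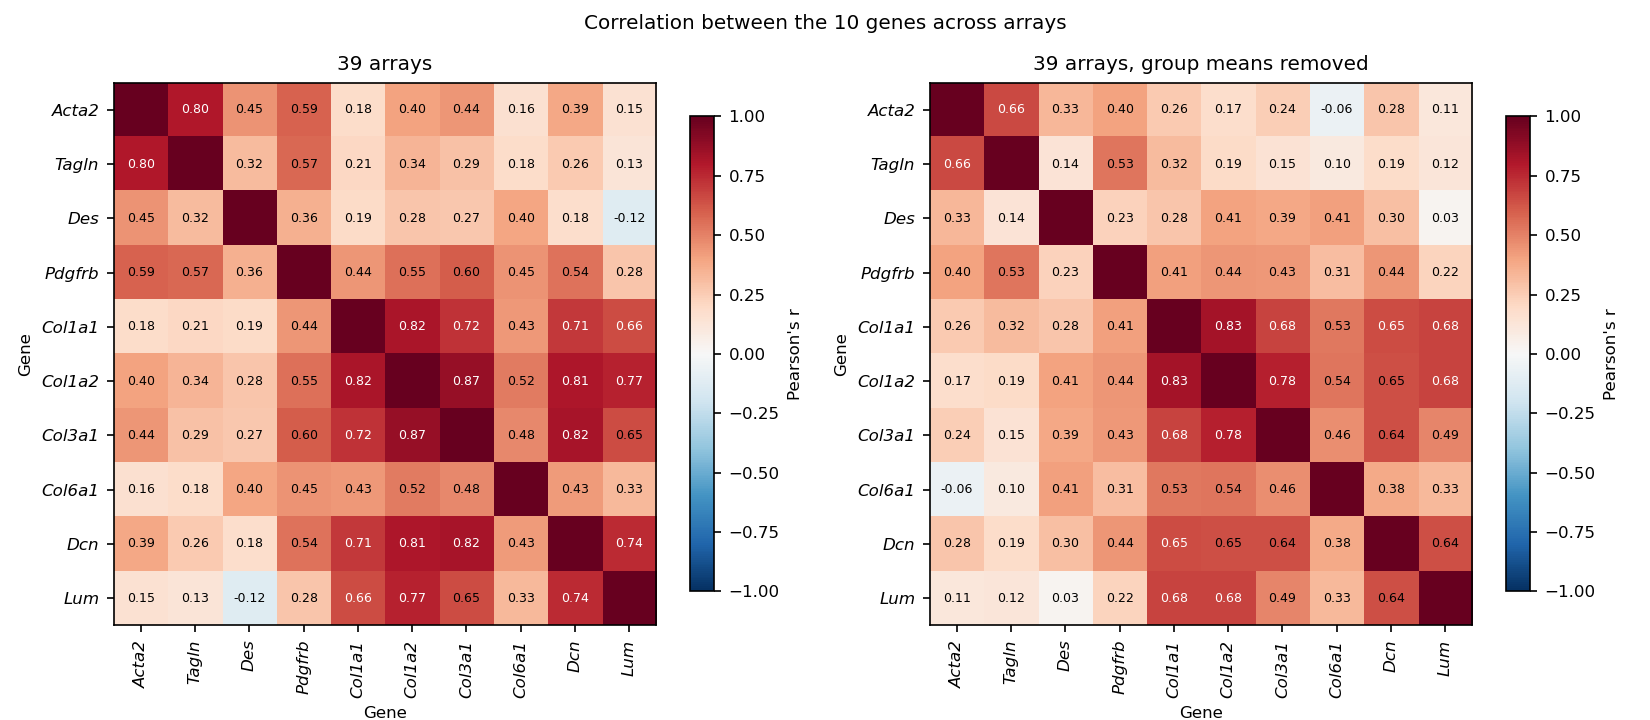
Pearson's r between each pair of the 10 genes across 39 arrays, for the values as deposited (left) and after removing each group mean (right), on a colour scale from −1 to 1. The matrix genes Col1a1, Col1a2, Col3a1, Dcn and Lum form a block of r from 0.65 to 0.868 in the left panel.

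For a ranking of genes, each of the 10 was centred and divided by its SD over arrays before the mean was taken. Of 19928 other genes, those that followed this scaled mean most closely over the 39 arrays were Bgn (r = 0.859), Postn (0.834), Col14a1 (0.828), Ptn (0.79), Flna (0.761), Abca8a (0.757), Ltbp4 (0.753), Scn7a (0.751), Col4a1 (0.747) and Nid1 (0.745). After removal of group means Col14a1 (0.782), Postn (0.777), Bgn (0.773), Ptn (0.746) and Podxl (0.713) led. For single members the closest genes were Pcyox1 for Acta2 (0.775), Sema4c for Tagln (0.732), Col4a1 for Pdgfrb (0.749), the lysyl oxidase Loxl1 for Col1a1 (0.811), Bgn for Col1a2 (0.827) and for Dcn (0.871), Postn for Col3a1 (0.862), Akap12 for Lum (0.743), Mfap4 for Col6a1 (0.595) and the pseudogene H2bu1-ps for Des (0.633). Whole lists were compared with the plain log2 mean of the 10 instead, without scaling, so these r are not on the same footing. That plain mean followed the other stromal matrix genes most closely (r = 0.889, and 0.826 with group means removed), then, as deposited, the basement membrane (0.783) and endothelial lists (0.731). With group means removed the fibroblast (0.638), smooth muscle and quiescent stellate lists (0.615 each) came before the endothelial (0.596) and basement membrane lists (0.589). Lists of less related cells were positive there too, such as Schwann cell (0.525), macrophage (0.447), adipocyte (0.422) and mesothelial (0.372). Only the acinar (−0.18) and beta cell lists (−0.057) were negative, so these values are not particular to stromal lists. As deposited, the plain mean of the 10 had r of 0.571 with the pericyte list (0.511 with group means removed) and −0.151 with the acinar list.

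**Figure D4:**
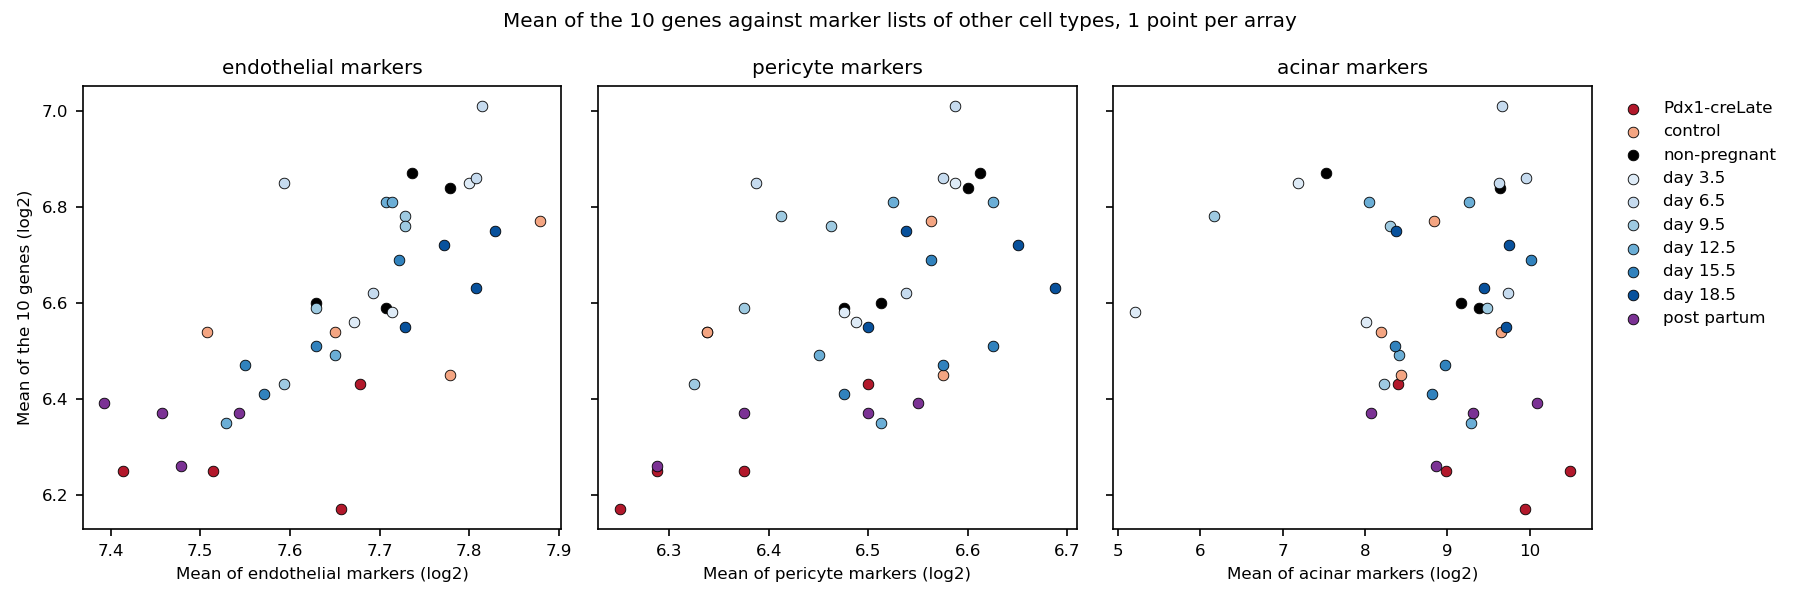
Mean log2 value of the 10 genes on each array (vertical axis) against the mean of the endothelial, pericyte and acinar marker lists (horizontal axes), 1 point per array, coloured by group. Post partum arrays lay at the low end of the endothelial axis, 7.39 to 7.54, and r over the 39 arrays was 0.731, 0.571 and −0.151 in the 3 panels.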

How the data were processed

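Values are the log2 expression values that the authors deposited for 39 islet RNA samples on Affymetrix Mouse Gene 1.0 ST arrays. They were made with RMA in Affymetrix Expression Console, per the submitters' processing notes, and which arrays were normalized together and the genome build are not given in the sources used here. RMA corrects background, normalizes quantiles and summarizes probes, and it shrinks differences of dim probe sets. The values run from 1.7 to 14.5 in steps of 0.1, so many arrays tie. Arrays have no read depth, so precision is limited by how many there are.

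Of 35556 probe sets, 21789 had 1 gene symbol, 1621 several and 12146 none, which gave 19938 genes (highest-mean probe set per symbol). No further normalization was applied. Differences were tested two-sided with limma 3.58.1 (R 4.3.3) and Benjamini-Hochberg adjustment over all genes at 0.05. The 8 arrays of the transgenic pair were fitted alone, the 31 C57bl6/J arrays in 1 model, and the effect difference and the control comparison over all 39. The fits were tested on simulated data. Correlations and figures used Python 3.11.15, pandas 2.3.3 and matplotlib 3.10.9.

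The members and the 7 pathway and 13 marker lists were chosen with earlier results of these data known. Of 246 listed genes 227 were measured. All 10 members were named in each comparison, and from each list up to 4 genes past the threshold, by size of change. The most similar genes were ranked by Pearson's r. Replicate numbers were shared between groups, but deviations of same-numbered arrays were not related (median r = 0.0101, and 0.00532 for other numbers), so arrays were treated as unpaired. Alternatives covered dim genes, normalization, centring, limma settings, probe set choice, covariates, the replicate block, the arrays fitted, each array left out, and noise within the rounding step, which was added after the data had been seen.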

Additional observations from a re-analysis of the deposited data

Results flagged for a closer look

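In 8 of 90 groups of 4 arrays, 1 array lay far from the other 3 by Dixon's criterion, which chance gives in about 1 in 20 groups. With values in steps of 0.1, the first 6 of these are cases in which the other 3 arrays tie exactly. Des was at 5.2 in control replicate 1, where the other controls were all at 5.5, and at 5.5 in day 15.5 replicate 2, where the others were at 5.4. Pdx1-creLate replicate 4 was high for Col1a1, at 7.3 where the others were at 7.1, and for Col6a1, at 7.0 where the others were at 6.8. Col1a2 was at 7.7 in day 15.5 replicate 4, where the others were at 7.5, and Col6a1 at 6.9 in day 12.5 replicate 4, where the others were at 6.8. Day 6.5 replicate 1 was low for both proteoglycans, with Dcn at 6.7, where the others lay at 7.5 to 7.6, and Lum at 4.1, where the others lay at 4.7 to 4.8.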

How the results depend on the processing

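Over 3237 recomputed member values, 3111 stayed on their side of the threshold. Most of these were uncalled from the start, so this count says little about how firm the calls are. Another 36 became called. Of those called with the main setting, 87 were no longer called and 3 more lost the call with a change of sign. A further 82 of the 2828 signed differences changed sign without being called before or after, 41 of them with an array left out. The direction of those depended on the setting or the arrays used, and uncalled differences that kept their sign still did not pass the test. The 3 called ones changed sign with the endothelial mean as a covariate, namely Tagln post partum against non-pregnant (0.036, adjusted p = 0.924) and Col3a1 (0.059, adjusted p = 0.917) and Dcn (0.435, adjusted p = 0.532) post partum against day 18.5. With that covariate the members called were 0 in both post partum comparisons, 1 on day 18.5 and 1 between Pdx1-creLate and control. With the array SD as a covariate they were 0 against day 18.5, 0 in the test over all pregnancy days, 1 in the transgene comparison and 1 between control and non-pregnant. The transgene count was also 1 under quantile normalization, centring on medians, every probe set tested and the acinar mean as a covariate. Day 9.5 had 1 under quantile normalization, the test over all days had 0 with centring on medians and up to 3 under other settings, and the effect difference had 1 without the dimmest 25% of genes. The control count against non-pregnant was 1 with trend and robust eBayes, with array weights and with rounding noise. With the replicate block, whose numbers did not pair the arrays, the counts were 1 for the transgene, 1 for the test over all days and 1 for control against non-pregnant. Leaving out each array gave 1 to 3 members for the transgene, 0 to 1 for day 9.5, 2 to 5 post partum against non-pregnant, 2 to 4 against day 18.5, 0 to 5 for the test over all days, 0 to 1 for the effect difference and 1 to 2 for control against non-pregnant. The causes of these shifts were not tested. Few arrays per group and the rounding step limit what differences under about 0.1 can show.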

Other observations

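Some cell type lists held large differences of single genes in Pdx1-creLate islets. Of 7 genes of quiescent stellate cells, Ngfr, the low-affinity nerve growth factor receptor, was higher (0.98 ± 0.10, limma adjusted p = 1.27e-05), and of 10 fibroblast genes Gsn (gelsolin) was lower (−0.90 ± 0.09, adjusted p = 9.33e-06). The widest differences were in Cftr, a chloride channel of ducts (3.53 ± 0.23), Gfra3, a neurotrophic factor co-receptor (2.85 ± 0.15), and Gpm6a, a membrane glycoprotein listed for mesothelium (2.48 ± 0.16). Each was the 1 gene called higher of its list, among 8 ductal, 6 Schwann cell and 7 mesothelial genes, and Cdh19 of the Schwann cell list was lower (−0.48 ± 0.09). By sign, the ductal list had 1 positive and 7 negative differences and the Schwann cell list 1 positive and 5 negative. The mesothelial list had 4 positive and 3 negative, and the quiescent stellate list 3 positive and 4 negative. Of the endocrine lists, Ucn3 (−0.93 ± 0.09), Slc2a2 (−0.58 ± 0.09), Slc30a8 (−0.45 ± 0.09) and Mafa (−0.38 ± 0.10) were the beta cell genes called lower, and Ppy, Pyy and Sst (−0.55 each) the other hormone genes. Post partum, Vim (vimentin) of the 7 quiescent stellate genes was lower than in non-pregnant islets (−0.60 ± 0.13, adjusted p = 0.00232) and than on day 18.5 (−0.83 ± 0.13, adjusted p = 0.000205). The mean of that list ran from 6.26 to 6.37 post partum. It overlapped non-pregnant islets (6.31 to 6.50) but not day 18.5 (6.49 to 6.53). C1qa, a complement gene of the 10 macrophage markers, was higher than in non-pregnant islets (0.70 ± 0.11, adjusted p = 8.34e-05). The macrophage mean overlapped, with 6.29 to 6.59 post partum and 6.23 to 6.47 in non-pregnant islets. Of all genes 12.2% were called against non-pregnant and 30.2% against day 18.5.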
